A study of Homo sapiens with 6 samples.

Results

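KCTD11, PHLDB1, LBH, SAMD11, PGM2L1, NRSN1, FLRT3 and ANKRD33B are 8 genes with large shifts after TGF-β1 that belong to no classical TGF-β target family, out of 22091 gene IDs measured. They were chosen on the TGF-β1 change itself, so that change is described here without a test, and tests are kept for differences between the cell lines and for the responses of relatives, partners and neighbouring genes. The lists of those genes were also drawn up with earlier results of these data known, so their counts are not independent evidence. RNA was sequenced from 3 human hepatocellular carcinoma lines, MHCC97L, MHCC97H and HCCLM3, each as an untreated 4 h control and after 4 h with TGF-β1 at 2.5 ng/mL. All lines were kept in the same serum-containing medium, and no genetic change was made to any of them, as far as the labels say. MHCC97L and MHCC97H are sublines of one tumour line and HCCLM3 was obtained from metastases of MHCC97H, so the lines share an origin. There was 1 library per line and condition (6 in all), and the labels do not say whether they came from separate cultures. The p-values for TGF-β1 therefore measure the spread of its change between lines. For differences between lines they measure what is left after a common treatment effect, not the variation between cultures of a line.

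Library totals ran from 18485041 to 23242862 expected counts. Of 10 hepatocyte markers 5 were at 1 CPM (counts scaled by library total and TMM factor) or more in every library. The liver transcription factor gene HNF4A was at 79.0 to 208 CPM, and the albumin gene ALB was at 1.26 to 22.9 CPM. TTR did not exceed 0.756 CPM. APOA1 (0.213 to 2.98 CPM), APOB (0.581 to 14.3 CPM), FGB (0.266 to 45.9 CPM) and SERPINA1 (0.85 to 114 CPM) were also below 1 CPM in some library. The summed hepatocyte list was 151 to 348 CPM in controls and 209 to 483 CPM after TGF-β1. The fibroblast and stellate list summed to 10.3 to 34.1 CPM and 12.0 to 33.1 CPM, mostly LUM (9.27 to 17.7 CPM) and COL3A1 (up to 14.4 CPM), while ACTA2 did not exceed 0.131 CPM and COL1A2 0.4 CPM. The endothelial list summed to 13.2 to 40.8 CPM in controls and 9.59 to 35.1 CPM after TGF-β1, and 3 of its 4 genes were above 1 CPM in every library: PECAM1 (5.91 to 31.0 CPM), KDR (2.52 to 10.5 CPM) and VWF (1.07 to 3.7 CPM). CDH5 did not exceed 0.348 CPM. The part of these markers in the results below was not tested. The leukocyte list summed to 125 to 217 CPM and 110 to 247 CPM, nearly all of it CD68, while PTPRC did not exceed 0.131 CPM. In bulk RNA, fewer cells of a kind and less RNA per cell cannot be told apart.

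TGF-β1 binds a pair of receptor kinases that phosphorylate SMAD2 and SMAD3, which enter the nucleus with SMAD4 and act on genes together with partner factors such as AP-1. In hepatocyte-derived cells the ligand is known for growth arrest, cell death and a shift towards mesenchymal shape, and its best known targets include SMAD7 and PMEPA1. The genes described here are listed with other known roles. PHLDB1 (LL5α) sits at the cell cortex and FLRT3 is a cell surface adhesion receptor; KCTD11 is an adaptor of the CUL3 ubiquitin ligase that restrains Hedgehog signalling; LBH is a transcription cofactor known as a WNT target; SAMD11 has a sterile alpha motif and is known with Polycomb proteins in photoreceptors; PGM2L1 makes the sugar bisphosphate that primes phosphoglucomutases; NRSN1 is a vesicle membrane protein of neurons; and ANKRD33B is an ankyrin repeat protein.

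RefSeq (GRCh38.p14) gave the 250 bases before the annotated start for each of the 8 genes, in 9 windows because PHLDB1 has a pair of them. The bases that follow the start were found in a GENCODE transcript for 6 of the 9 windows, and not for the first PHLDB1 window, SAMD11 or ANKRD33B. KCTD11 and LBH, whose windows lie wholly or partly in an annotated exon, are shown only as a 30-base stretch. The first PHLDB1 window and those of NRSN1, ANKRD33B and FLRT3 are shown up to the first annotated exon base. The second PHLDB1 window and those of SAMD11 and PGM2L1 are not shown. The stretch of KCTD11 is at chr17:7351972-7352001 (+) and that of LBH at chr2:30231425-30231454 (+). These stretches are shown because each holds a motif that few promoters have, an AP-1 match (TGANTCA) in KCTD11 and the cyclic AMP response core letters (TGACGT) in LBH, in capitals.
KCTD11: ggcgacgtgccTGAGTCAccccgtcccgcc
LBH: tcatgattttggTGACGTtattccaggagt
The AP-1 letters stood 179 to 173 bases before the KCTD11 start and the core letters 97 to 92 bases before the LBH start. Searched on both strands, TGANTCA was in 6.57% and TGACGT in 7.1% of 35116 promoter windows of the same length, and each was in 1 of the 9 windows here.

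The windows of the genes that were lower after TGF-β1, FLRT3 and ANKRD33B, are shown beside those of PHLDB1 and NRSN1, which were higher, with the SMAD-binding letters CAGAC (or GTCTG on the other strand) in capitals. They are PHLDB1 at chr11:118606186-118606435 (+), NRSN1 at chr6:24125965-24126121 (+), ANKRD33B at chr5:10563820-10564069 (+) and FLRT3 at chr20:14337617-14337862 (-).
PHLDB1: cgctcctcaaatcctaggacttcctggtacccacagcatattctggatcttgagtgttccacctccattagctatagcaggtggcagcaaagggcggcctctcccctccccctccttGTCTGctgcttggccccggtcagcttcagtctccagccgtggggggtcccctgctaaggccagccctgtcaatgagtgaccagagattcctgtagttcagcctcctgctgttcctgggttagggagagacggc
NRSN1: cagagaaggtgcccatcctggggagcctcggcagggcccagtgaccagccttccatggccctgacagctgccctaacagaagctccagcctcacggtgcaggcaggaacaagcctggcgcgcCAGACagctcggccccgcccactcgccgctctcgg
ANKRD33B: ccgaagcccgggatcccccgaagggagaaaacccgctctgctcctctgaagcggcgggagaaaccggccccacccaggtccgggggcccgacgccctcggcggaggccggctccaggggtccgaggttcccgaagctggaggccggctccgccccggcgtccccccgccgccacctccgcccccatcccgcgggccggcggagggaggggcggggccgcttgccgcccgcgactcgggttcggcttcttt
FLRT3: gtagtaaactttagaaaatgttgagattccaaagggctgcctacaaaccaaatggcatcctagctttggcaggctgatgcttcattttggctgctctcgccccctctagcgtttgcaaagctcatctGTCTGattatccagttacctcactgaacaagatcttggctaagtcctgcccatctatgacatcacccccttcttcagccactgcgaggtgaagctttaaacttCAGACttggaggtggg
CAGAC was in 5 of the 9 windows (KCTD11, the first PHLDB1 window, PGM2L1, NRSN1 and FLRT3) and in 38.0% of all windows, so it is a common sequence. FLRT3 held it at 123 to 119 and at 20 to 16 bases before the start, and ANKRD33B did not hold it. The SMAD palindrome GTCTAGAC, present in 0.182% of all windows, was in none of the 9, and neither were the TEAD letters GGAATG (11.9% of all). GGCGCC was in 2 windows (16.4% of all), TATAAA in 1, that of LBH (10.7%), and the SP and KLF letters GGGCGG in 7 (42.6%). The base composition set FLRT3 apart from the other genes: 47.6% G and C, against 58.8% to 77.2% in the other 8 windows and a median of 58.0% over all windows. A match is a description of the letters only.

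PHLDB1, the cortical protein, is on chromosome 11, 118606440 to 118658038 (+), in 28 exon blocks (GENCODE 29, GRCh38, as for all positions below). In the line order MHCC97L, MHCC97H, HCCLM3, used throughout, it measured 59.6, 46.8 and 105 CPM without ligand and 215, 207 and 329 CPM after TGF-β1. Every treated library was above every control, with HCCLM3 the highest line in both conditions. The within-line log2 changes were 1.85 in MHCC97L, 2.14 in MHCC97H and 1.64 in HCCLM3, with 95% counting intervals of 1.76 to 1.94, 2.05 to 2.25 and 1.57 to 1.72. These intervals, exact conditional binomial ones that cover counting error only, did not overlap. In these libraries HCCLM3 had the highest level and the smallest relative shift. Without repeat libraries of a line and condition, a difference in shift between lines could not be tested, here or for the genes below.

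FLRT3, a leucine-rich repeat receptor that binds UNC5 receptors, latrophilins and FGFR1, is on chromosome 20, 14322988 to 14337616 (-), within MACROD2 on the other strand. It measured 26.6, 36.7 and 19.7 CPM in the controls and 13.5, 18.2 and 9.21 CPM after TGF-β1. The order of the lines was the same in both conditions, MHCC97H highest and HCCLM3 lowest, and the lowest control, HCCLM3, was only slightly above the highest treated library, MHCC97H. After TGF-β1 the level was 50.9%, 49.6% and 46.7% of the line's own control.

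KCTD11, which recruits CUL3 to the deacetylase HDAC1 and so lowers GLI activity, is a single-exon gene on chromosome 17, 7351889 to 7354944 (+). Its control levels were 12.3, 9.91 and 16.0 CPM and its TGF-β1 levels 46.9, 34.1 and 60.7 CPM. The groups did not overlap and the lines kept their order, HCCLM3 highest and MHCC97H lowest. The log2 changes of 1.92, 1.77 and 1.92 lay within each other's counting intervals.

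LBH, on chromosome 2 at 30231369 to 30323730 (+), measured 138, 103 and 92.3 CPM in the controls and 321, 291 and 273 CPM after TGF-β1. Here MHCC97L was highest and HCCLM3 lowest in both conditions, and the groups did not overlap. The relative shift ran the other way, with log2 changes of 1.22 in MHCC97L, 1.5 in MHCC97H and 1.56 in HCCLM3.

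SAMD11, on chromosome 1 at 923928 to 944581 (+), measured 1.09, 1.91 and 5.47 CPM in the controls and 8.18, 11.2 and 14.1 CPM after TGF-β1. HCCLM3 was the highest line in both conditions, and its control came closest to the treated libraries. The line differences were wider without the ligand: HCCLM3 stood 2.24 above MHCC97L on the log2 scale in the controls and 0.78 above it after TGF-β1. The within-line log2 changes were 2.81, 2.50 and 1.35 (prior count 2), and the counting interval of HCCLM3, 1.04 to 1.70, lay below those of MHCC97L, 2.30 to 3.58, and MHCC97H, 2.07 to 3.07. The MHCC97L and MHCC97H controls held 25.19 and 39.88 expected counts, the fewest of any library of the 8 genes.

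PGM2L1, on chromosome 11 at 74330318 to 74398473 (-), had the most even shift. Its levels were 18.2, 17.8 and 21.5 CPM in the controls and 44.1, 45.6 and 53.4 CPM after TGF-β1. The log2 changes were 1.27, 1.36 and 1.31, a range of 0.08 over the lines, and the groups did not overlap.

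ANKRD33B, on chromosome 5 at 10564330 to 10657816 (+), measured 10.9, 10.1 and 9.67 CPM in the controls and 5.07, 4.99 and 4.17 CPM after TGF-β1. The lines were close to each other in both conditions and the groups did not overlap. The treated level was 46.4%, 49.3% and 43.1% of the line's control.

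NRSN1, on chromosome 6 at 24126122 to 24154900 (+), had the least even shift of the 8. Control levels were 6.83, 9.58 and 7.97 CPM, and TGF-β1 levels were 10.5, 49.4 and 62.0 CPM. The lowest treated library, MHCC97L, was barely above the highest control, MHCC97H, while MHCC97H and HCCLM3 were 5.16-fold and 7.78-fold above their own controls. The log2 changes of 0.62, 2.36 and 2.94 differed by 2.33 between the extreme lines, and the counting intervals of 0.33 to 0.93, 2.15 to 2.59 and 2.71 to 3.21 did not overlap. With 1 library per line and condition, that difference between lines could not be tested. The fitted NRSN1 change was 1.66 without HCCLM3 and 2.66 without MHCC97L, against 2.07 with all lines.

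**Figure D1:**
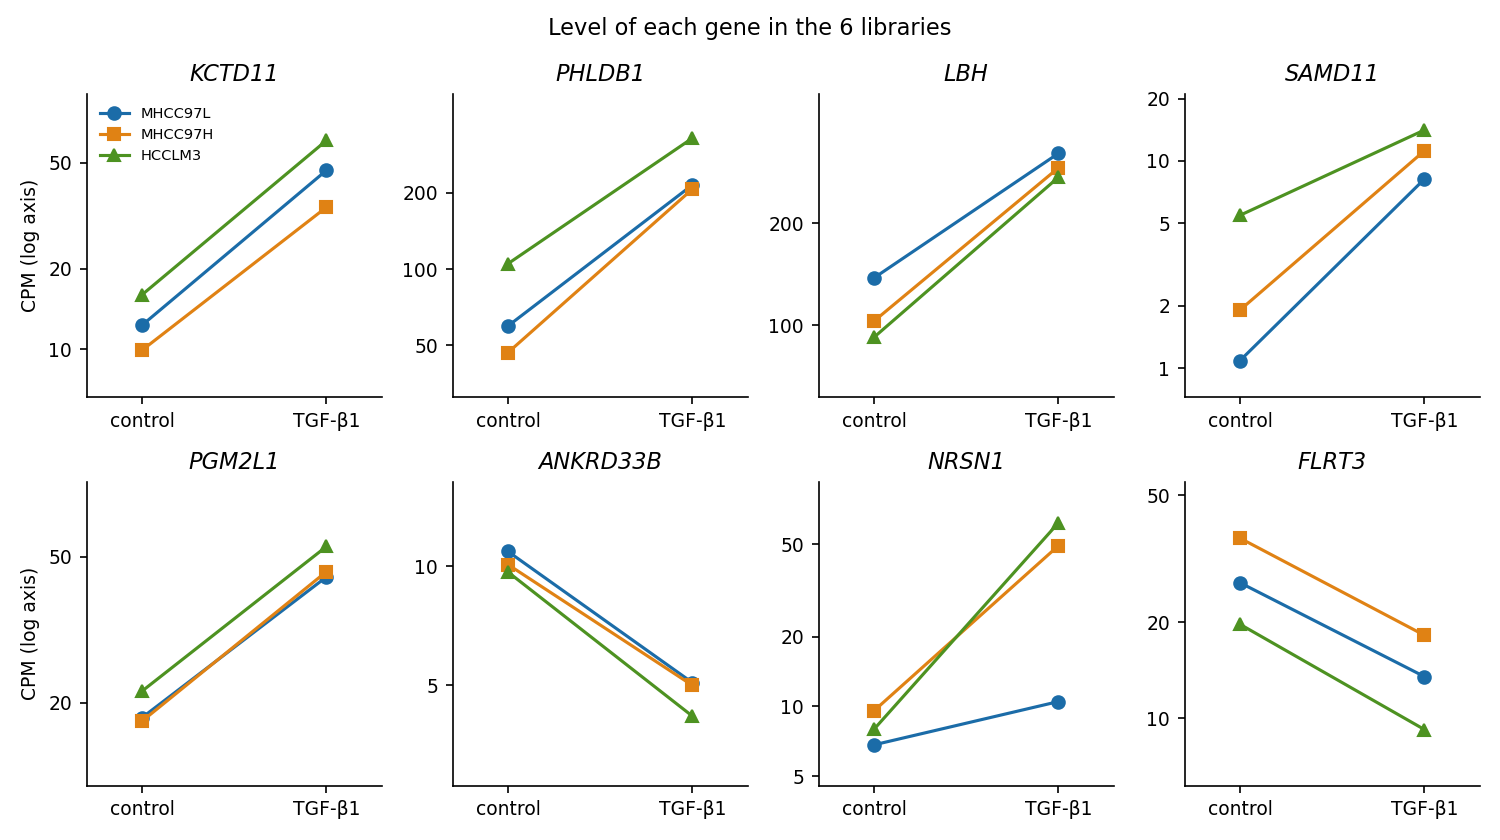
Levels of the 8 genes in CPM (TMM-scaled, log axis) in the control and TGF-β1 library of each line, 1 point per library and 1 line per cell line. In each panel the 3 treated libraries lie on one side of the 3 controls. For NRSN1 the MHCC97L line has the smallest rise of the 3, from 6.83 to 10.5 CPM.

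In all, 8 of 8 genes did not overlap between conditions. Over the 14176 genes tested, all treated libraries were above all controls for 8.77% and below them for 9.19%. A within-line change of 2-fold or more in all 3 lines was found for 5 of the 8 upwards (0.755% of all genes) and for 1 of the 8, ANKRD33B, downwards (0.0988% of all genes). NRSN1 fell short of 2-fold in MHCC97L and so did FLRT3, at a log2 change of -0.97. These counts follow from how the genes were chosen and support nothing further. By the fitted change over the 3 lines, SAMD11 (4.31-fold) and NRSN1 (4.20-fold) stood at places 50 and 51 of 14176 by size of increase, ahead of KCTD11 (3.68-fold, place 66), PHLDB1 (3.67-fold, 68), LBH (2.69-fold, 117) and PGM2L1 (2.49-fold, 142). ANKRD33B was 2.16-fold lower (place 71 by size of decrease) and FLRT3 2.03-fold lower (place 91). All 8 passed the filter on low counts, and none had fewer than 25.19 counts in a library.

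**Figure D2:**
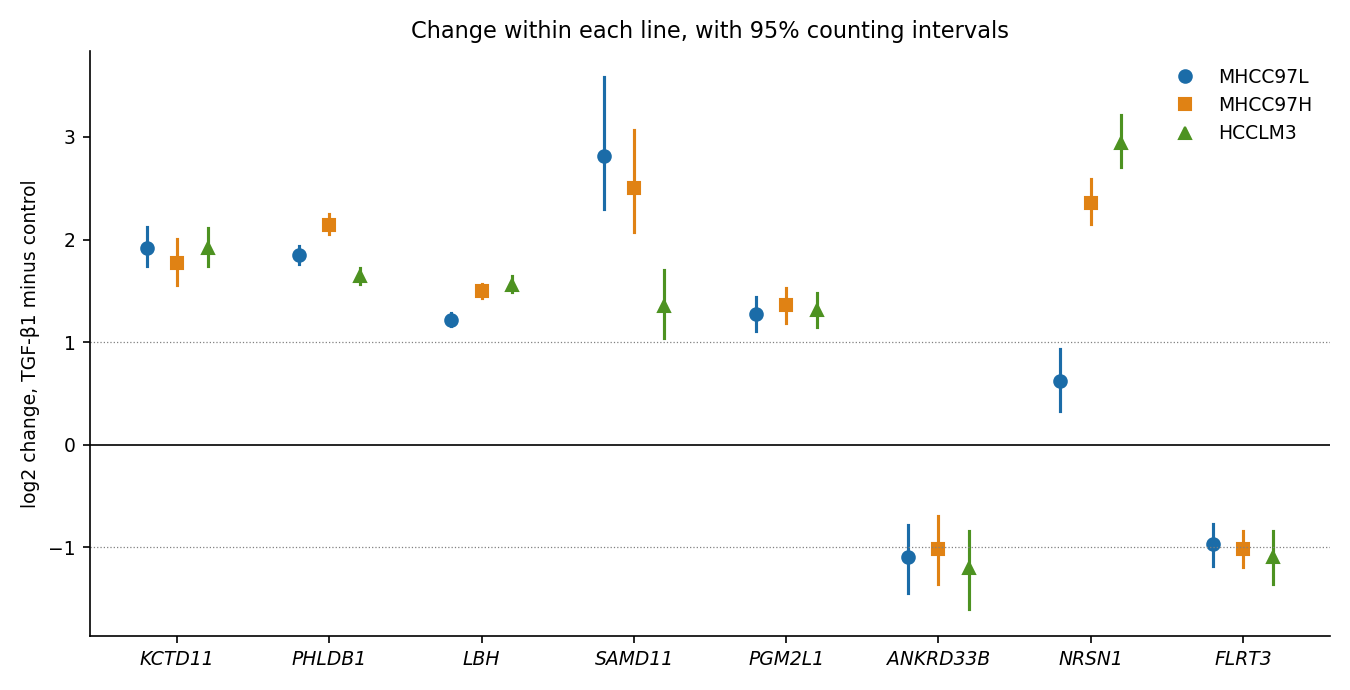
Change within each line on the log2 scale (TGF-β1 minus control, prior count 2), with bars for the 95% counting interval; dotted lines mark 2-fold. KCTD11, PGM2L1, ANKRD33B and FLRT3 have overlapping intervals in the 3 lines, while SAMD11 is lowest in HCCLM3 (1.35) and NRSN1 is lowest in MHCC97L (0.62).

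Per kilobase of exon, LBH was the most abundant transcript in both conditions, at a mean of 29.6 CPM per kb in controls and 78.6 CPM per kb after TGF-β1. In the controls it was followed by PHLDB1 (12.0), FLRT3 (5.56), KCTD11 (4.17), NRSN1 (2.64), PGM2L1 (2.25), ANKRD33B (1.11) and SAMD11 (1.10), all in CPM per kb. Between neighbours in that order the ranges over the 3 lines overlapped for FLRT3 and KCTD11, for NRSN1 and PGM2L1, and for ANKRD33B and SAMD11, and were separate otherwise. After TGF-β1 the order was LBH, PHLDB1 (42.6), KCTD11 (15.5), NRSN1 (13.2), PGM2L1 (5.61), SAMD11 (4.36), FLRT3 (2.74) and ANKRD33B (0.516). FLRT3 moved from the third place to the seventh. In that order the ranges of KCTD11, NRSN1, PGM2L1, SAMD11 and FLRT3 each overlapped with the next, and those of LBH, PHLDB1 and ANKRD33B stood apart.

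The lines were compared over both conditions in one model, with treatment as a term, for 24 differences in all (8 genes, 3 pairs of lines). The spread in this test is what is left after a common treatment effect. It may be small for genes with an even shift, such as PGM2L1, and was large for NRSN1, whose shift was uneven. Of the 24 differences 8 passed an adjusted p of 0.05. HCCLM3 differed from MHCC97L in 5 of the 8 genes, where 29.8% of all genes passed, and from MHCC97H in 3 of the 8, where 27.2% passed. MHCC97H and MHCC97L differed in 0 of the 8 by edgeR and 0 by DESeq2, where 2.45% of all genes passed by edgeR. At an unadjusted edgeR p below 0.05, KCTD11, LBH and FLRT3 differed between MHCC97H and MHCC97L. When HCCLM3 was left out these 3 passed, at edgeR adjusted p values of 0.0169, 0.0387 and 0.00713. In that fit, which had fewer libraries, 1296 of all genes passed, against 348 with all lines, so the 2.45% does not apply to it.

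PHLDB1 was higher in HCCLM3 than in MHCC97L by 0.72 on the log2 scale (SE 0.114, edgeR quasi-likelihood adjusted p = 0.00163) and than in MHCC97H by 0.91 (SE 0.115, edgeR adjusted p = 0.000547). KCTD11 showed the same direction, 0.37 above MHCC97L (SE 0.0982, edgeR adjusted p = 0.0195) and 0.77 above MHCC97H (SE 0.1, edgeR adjusted p = 0.000624). FLRT3 went the opposite way, with a HCCLM3 difference of -0.49 from MHCC97L (SE 0.107, edgeR adjusted p = 0.00883) and -0.94 from MHCC97H (SE 0.106, edgeR adjusted p = 0.0003). The FLRT3 difference was there in controls (-0.90 from MHCC97H) and after TGF-β1 (-0.98).

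LBH was lower in HCCLM3 than in MHCC97L, by a log2 difference of -0.41 (SE 0.0978, edgeR adjusted p = 0.0131), and its difference from MHCC97H was -0.12 (SE 0.0977, edgeR adjusted p = 0.409). SAMD11 was higher in HCCLM3 than in MHCC97L by 1.27 (SE 0.357), at an edgeR adjusted p of 0.0488. That p was 0.0508 with library totals, 0.0504 with no count filter and 0.0901 without MHCC97H. It ranged from 0.00111 (DESeq2) to 0.0901 over the alternatives. The KCTD11 difference between HCCLM3 and MHCC97L had a DESeq2 adjusted p of 0.0764, in a range of 0.0135 to 0.0764. PGM2L1, ANKRD33B and NRSN1 passed in none of their comparisons. The largest of these, NRSN1 in HCCLM3 against MHCC97L, was 1.56 with an SE of 0.794 (edgeR adjusted p = 0.307); it was 0.22 in the controls and 2.55 after TGF-β1.

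**Figure D3:**
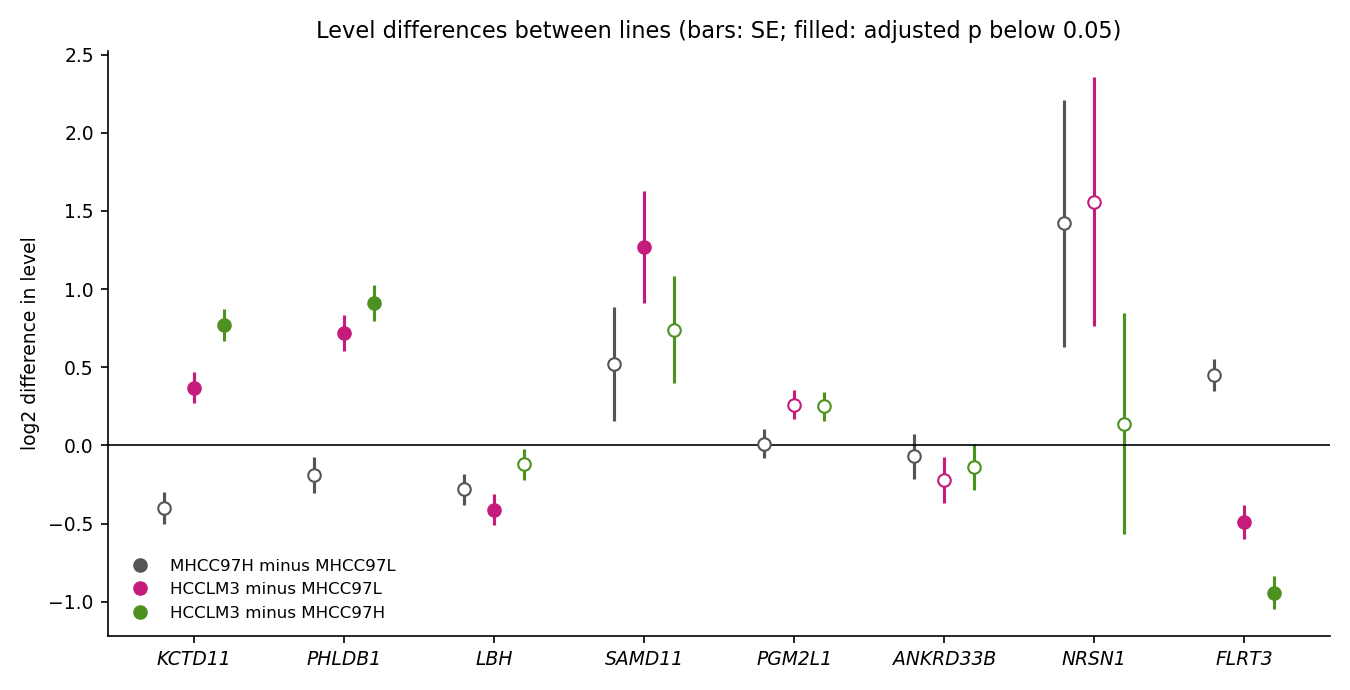
Difference in level between pairs of lines on the log2 scale, over both conditions, with bars for 1 SE and filled points for an edgeR adjusted p below 0.05. KCTD11 and PHLDB1 are higher in HCCLM3 than in both other lines and FLRT3 is lower, while the NRSN1 points have the widest bars.

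The closest relatives of the 8 genes were tested for TGF-β1. Of 11 paralogs 8 could be tested; 3 rose (7.79% of all genes rose), 0 fell (6.65% of all genes fell), and the median log2 change was -0.02, against 0.00 over all genes. Both PHLDB relatives rose: PHLDB2 (LL5β), the microtubule-anchoring partner, by 0.53 (SE 0.107, edgeR adjusted p = 0.014) and PHLDB3 by 0.76 (SE 0.123, edgeR adjusted p = 0.00572). PHLDB2 went from 11.8, 11.4 and 48.8 CPM to 18.2, 19.5 and 58.9 CPM in MHCC97L, MHCC97H and HCCLM3. Its groups overlapped since both HCCLM3 libraries were high, and its call was lost without MHCC97L (edgeR adjusted p = 0.0985, range over the alternatives with the line term 0.000517 to 0.0985). PHLDB3 went from 7.49, 7.29 and 7.97 CPM to 11.1, 14.9 and 12.7 CPM, without overlap.

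In the FLRT family the relatives differed. FLRT2 rose by 0.41 (SE 0.0892, edgeR adjusted p = 0.0193), from 19.6, 18.4 and 21.6 CPM to 26.4, 26.6 and 25.8 CPM, and its groups did not overlap. FLRT1 had a log2 change of -0.65 (SE 0.222, edgeR adjusted p = 0.0857), with 2.35, 1.72 and 2.5 CPM in controls and 1.24, 1.33 and 1.6 CPM after TGF-β1. It was lower in all 3 lines, as FLRT3 was, without passing the test. The values of PGM2 (-0.08), NRSN2 (-0.01), KCTD21 (-0.02) and KCTD6 (-0.34) did not pass, and SAMD7, SAMD13 and ANKRD33 were too low to test, at no more than 0.609 CPM. The FLRT2 call was lost without MHCC97L (edgeR adjusted p = 0.18) and without MHCC97H (0.089), in a range of 0.00224 to 0.18 over the alternatives with the line term.

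Of 10 tested genes on a list drawn up around microtubule anchoring at the cortex with PHLDB proteins, 3 rose and 0 fell, with a median of 0.14. With library totals, and without HCCLM3, 1 fell. Not every gene on the list is itself a microtubule anchor. Beside PHLDB2 these were the focal adhesion adaptor LIMS1 (PINCH1), by 0.45 (SE 0.0644, edgeR adjusted p = 0.00313), and KANK2, a talin-binding protein, by 0.42 (SE 0.082, edgeR adjusted p = 0.0125). LIMS1 was nearly the same in the 3 controls, at 95, 94.5 and 95 CPM, and measured 133, 124 and 132 CPM after TGF-β1. The CLASP microtubule proteins had changes of -0.13 (CLASP1) and -0.23 (CLASP2) and did not pass. Without MHCC97L the edgeR adjusted p was 0.0703 for LIMS1 (range 5.34e-06 to 0.0703) and 0.076 for KANK2 (range 0.00109 to 0.076), and without MHCC97H it was 0.051 for KANK2.

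Of 7 tested FLRT partners 1 rose and 1 fell. RND1, a small GTPase that binds the FLRT3 cytoplasmic part, had 10.0, 9.29 and 8.24 CPM in controls and 61.0, 65.2 and 63.9 CPM after TGF-β1, a rise of 2.79 on the log2 scale (SE 0.0939, edgeR adjusted p = 3.1e-06). In each of the 3 lines RND1 was higher and FLRT3 lower after TGF-β1. The guidance receptor ROBO1 fell by 0.32 (SE 0.0686, edgeR adjusted p = 0.0188), a call lost without MHCC97L (edgeR adjusted p = 0.245, range 0.00199 to 0.245) and without MHCC97H (0.081). Of the receptors FLRT3 binds, UNC5B (0.27), UNC5C (0.36), ADGRL1 (-0.04) and FGFR1 (0.06) did not pass.

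Of 16 tested genes of the KCTD family and CUL3, 1 rose and 2 fell, with a median of -0.08. KCTD17 rose by 0.48 (edgeR adjusted p = 0.0332), KCTD3 fell by 0.33 (edgeR adjusted p = 0.0244) and KCTD1 fell by 0.31 (edgeR adjusted p = 0.0417), and these calls were lost without MHCC97L (0.3, 0.193 and 0.332) and without MHCC97H (0.114, 0.124 and 0.194). KCTD17 was also lost with library totals (0.0527) and DESeq2 (0.0774), and KCTD1 with no count filter (0.0595) and DESeq2 (0.105). Over all alternatives with the line term the lowest edgeR adjusted p of the 3 were 0.000918, 0.00456 and 0.00309. CUL3 itself had a change of -0.08. In the Hedgehog pathway, on which KCTD11 acts, 1 of 7 tested genes fell and 0 rose, with a median of -0.25. The gene that fell was the receptor PTCH1, itself a GLI target, by 0.54 (SE 0.109, edgeR adjusted p = 0.0137), from 11.3, 12.3 and 11.6 CPM to 7.07, 8.68 and 8.53 CPM. Its groups did not overlap, and its call was lost with DESeq2 and without MHCC97L, where the edgeR adjusted p was 0.154 (range 0.00469 to 0.154). The substrate HDAC1 (-0.02) and the factor GLI2 (0.05) did not pass, GLI1 was below 1 CPM and GLI3 was at 0 counts in every library.

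LBH is known as a WNT target, and of 9 tested WNT targets 1 rose and 2 fell, with a median of -0.05. The ubiquitin ligases RNF43 and ZNRF3, which remove WNT receptors from the surface, fell by 1.17 (SE 0.0983, edgeR adjusted p = 0.000214) and 0.50 (SE 0.0868, edgeR adjusted p = 0.00742). RNF43 went from 31.6, 45.0 and 40.8 CPM to 13.4, 23.4 and 15.9 CPM and did not overlap. The transcription factor TCF7 rose by 0.36 (edgeR adjusted p = 0.0221). NOTUM, a secreted WNT deacylase singled out here after its values were seen, had the largest positive change, 1.35 (2.17, 2.05 and 0.55 by line), at an edgeR adjusted p of 0.0883 that ranged from 3.18e-05 to 0.286 over the alternatives with the line term. With DESeq2, and without HCCLM3, 2 genes of the list rose. AXIN2, the usual readout of the pathway, had a change of -0.05. RNF43 and ZNRF3 passed in every alternative that kept the line term, and TCF7 did not pass without MHCC97L (edgeR adjusted p = 0.192, range 0.0125 to 0.192).

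Of 11 tested enzymes of hexose phosphates and glycogen, to which PGM2L1 belongs by function, 0 rose and 1 fell, with a median of 0.02. The one that fell was the glycogen branching enzyme GBE1, by 0.27 (edgeR adjusted p = 0.0472), a call lost without MHCC97L (0.245, range 0.0118 to 0.245), without MHCC97H (0.222), with DESeq2 and with no count filter. PGM1, the phosphoglucomutase primed by the product of PGM2L1, had a change of 0.00 at 49.4 to 68.8 CPM. Of 11 tested Polycomb genes 1 rose, PHC2, by 0.33 (edgeR adjusted p = 0.0159, but 0.236 without MHCC97L and 0.0612 without MHCC97H, range 0.000953 to 0.236), and 0 fell, with a median of 0.09. In the reference list of SMAD targets 21 of 27 tested genes rose and 0 fell. With library totals, with upper quartiles or without HCCLM3, 1 fell. PMEPA1 (3.30), JUNB (2.33), IL11 (2.27) and CDKN2B (1.55) had the smallest p, and the median of the list was 1.19. The fitted changes of SAMD11 (2.11), NRSN1 (2.07), KCTD11 (1.88), PHLDB1 (1.88), LBH (1.43) and PGM2L1 (1.32) lay above that median, given here as a description.

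**Figure D4:**
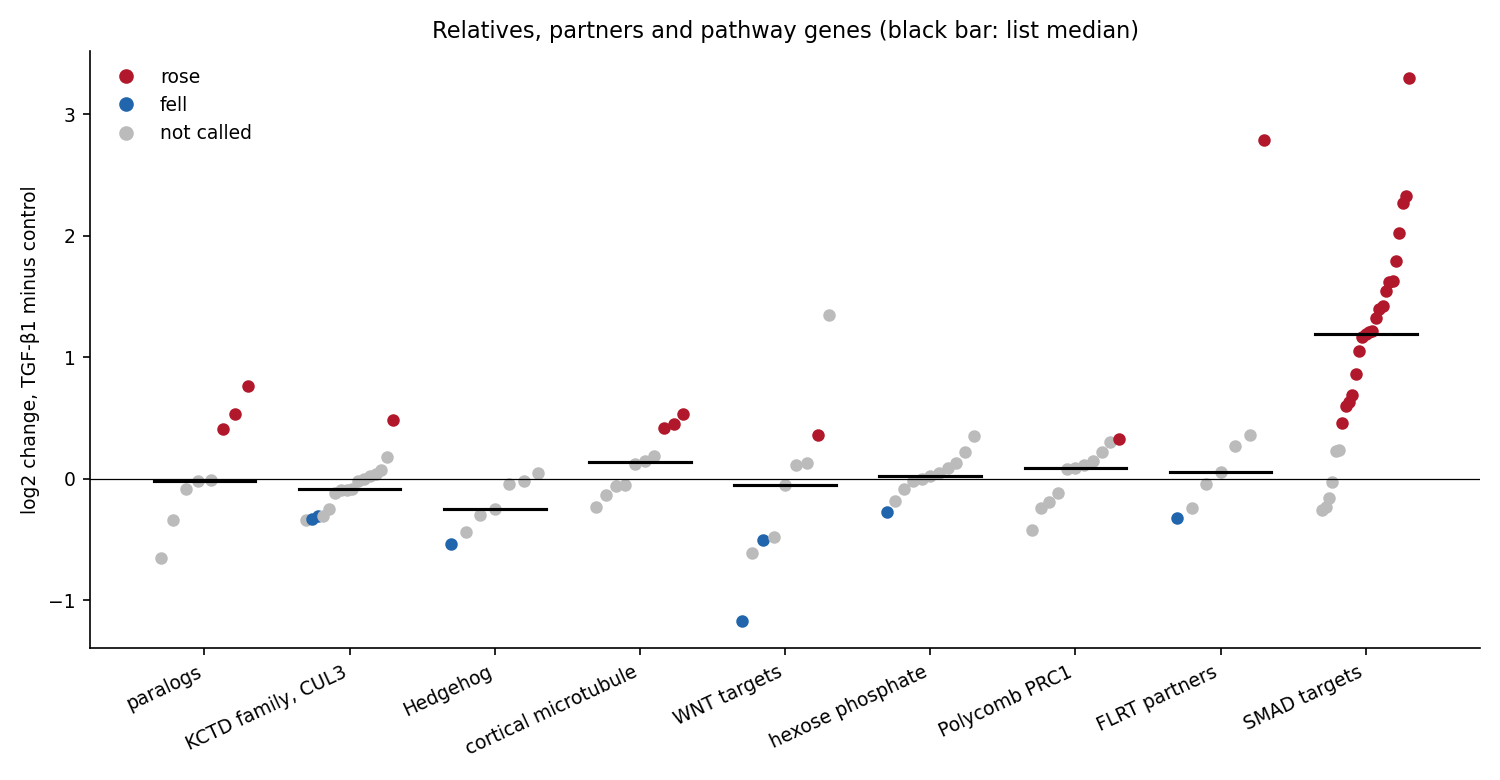
Log2 change after TGF-β1 of each tested gene on the lists of relatives, partners and pathway genes, 1 point per gene, with a black bar at the list median. Genes that rose (edgeR adjusted p below 0.05) are red, those that fell blue and the others grey; RND1 stands alone among FLRT partners at 2.79, and SMAD targets have a median of 1.19.

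The neighbours of the 8 genes on the chromosome were also tested. The nearest tested protein-coding gene before KCTD11 is ACAP1, which ends 410 bases before it on the same strand. ACAP1, an ARF6 GTPase-activating protein, rose by 1.47 (SE 0.262, edgeR adjusted p = 0.00866), from 1, 0.429 and 0.956 CPM to 2.22, 1.76 and 2.66 CPM, without overlap. Next to it on the other side, TNK1 rose by 0.35 (edgeR adjusted p = 0.0351), a call lost without MHCC97L (0.246, range 0.0304 to 0.246), without MHCC97H (0.131), with library totals and with DESeq2. Whether reads of KCTD11 reach into ACAP1 was not tested.

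Near LBH, YPEL5, 70835 bases away, rose by 0.38 (edgeR adjusted p = 0.0161, but 0.18 without MHCC97L and 0.0606 without MHCC97H, range 0.00563 to 0.18), and near NRSN1 the transcription factor SOX4, 2527502 bases away, rose by 0.90 (edgeR adjusted p = 0.00298). The other tested flanking genes did not pass: ARCN1, DDX6, LCLAT1, KLHL17, PPME1, KCNE3, MARCH6, DAP, MRS2, NDUFAF5 and KIF16B, with changes from -0.47 to 0.26.

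Some of the 8 genes share sequence with a gene on the other strand, and the labels do not say whether strand was kept, so such reads cannot be told apart. PHLDB1 shares 723 exonic bases with TREH, which was too low to test, at 0.0435, 0.0953 and 0.0531 CPM in controls and 0.267, 0.602 and 1.31 CPM after TGF-β1. SAMD11 shares 378 exonic bases with NOC2L, an abundant gene at 127 to 160 CPM whose change of 0.08 did not pass. KCTD11 shares 421 exonic bases with AC026954.3, ANKRD33B 800 with the pseudogene AC106760.1 and PGM2L1 137 with AP001372.1, all on the other strand and not analysed here. FLRT3 shares no exonic base with its host MACROD2, which was at 0.74 to 1.55 CPM with a change of 0.36 that did not pass. Counts were whole numbers in all 6 libraries for KCTD11, LBH, ANKRD33B and FLRT3, and in none for SAMD11, PGM2L1 and NRSN1. For PHLDB1 they were whole in the 3 controls (1370, 981 and 1978) and fractional in the 3 treated libraries (4828.14, 4814.2 and 6784.65). The levels of SAMD11, PGM2L1, NRSN1 and treated PHLDB1 are therefore less certain. The part of shared reads in the PHLDB1 change was not tested.

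The genes whose levels over the 6 libraries were most like each of these, among 10441 named genes averaging at least 5 CPM, were XIAP and CYTH1 for KCTD11 (r = 0.997 and 0.995), PPP1R13L and STK38L for PHLDB1 (0.997 and 0.9957), and SMOX and CITED4 for LBH (0.9969 and 0.9936). For SAMD11 they were ISOC2 and BMF (0.9937 and 0.9935), for PGM2L1 H2AJ and ACOX3 (0.9984 and 0.9953), and for ANKRD33B MCM9 (0.9935). For FLRT3 they were EIF4ENIF1 and MTOR (0.9973 and 0.9951), and for NRSN1 ARID4A and IL13RA1, with the lowest likeness (0.9812 and 0.9696). These r are Pearson values of log2 CPM over 6 libraries that share lines and treatment, and are a description only. The sizes differed: PPP1R13L went from 11.8, 8.44 and 22.3 CPM to 43.5, 48.1 and 67.3 CPM, whereas XIAP went from 131, 128 and 140 CPM to 171, 163 and 185 CPM.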

How the data were processed

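The authors deposited expected counts per gene (Ensembl IDs), 1 table per library; per the submitters' processing notes hg38 was the build and Cuffdiff 1.3.0, Cufflinks 2.2.1 and TopHat2 2.1.1 were used, in roles they do not state, and the counting tool and strand setting are not given in the sources used here. Reads that match several genes can be divided among them in such counts, which were rounded to whole numbers for the models. Of 22091 IDs 19574 matched a symbol, and GENCODE 29 gave coordinates, exon lengths and overlaps. Genes kept by filterByExpr (14176) were scaled by TMM (factors 0.972 to 1.029) and tested with edgeR 4.0.16 in R 4.3.3 (quasi-likelihood F test, robust, line and treatment as terms, 2 residual degrees of freedom) with Benjamini-Hochberg adjustment over all of them at 0.05. Alternatives were library totals, upper quartile scaling, no count filter, DESeq2 1.42.0, no line term, and each line left out. A fit with a line left out has fewer libraries and fewer residual degrees of freedom than the main fit. A call lost in it can therefore reflect less power as well as the line, and these were not told apart. Python 3.11.15 was used for tables and figures. The edgeR fit was also run on simulated counts with the same dispersion for all genes and few or no differences between lines. These settings are simpler than the data, and that run supports no result here.

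The pairing of libraries by line comes from the labels; deviations of a line's libraries from the condition means correlated across genes at 0.587 (MHCC97L), 0.456 (MHCC97H) and 0.728 (HCCLM3). Library totals set the precision: 3 counts, the most that a count of 0 allows, are 0.1291 to 0.1623 CPM. Within-line changes use a prior count of 2. The genes and lists were chosen with earlier results of these data known. Named were the 8 genes, their paralogs, overlapping and flanking genes, up to 4 list genes per direction by smallest p with the genes a list is named for, and the 2 most alike genes (some genes are not reported here); UNC5B, UNC5C, ADGRL1, FGFR1, CLASP1, CLASP2, HDAC1, GLI1, GLI2, GLI3, CUL3, AXIN2 and PGM1 were added as the genes a list is about. Promoter bases are RefSeq's, GRCh38.p14.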

Additional observations from a re-analysis of the deposited data

How the results depend on the processing

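With line as a replicate block, 2047 genes passed for TGF-β1 (edgeR); with no replicate block 10 passed. Leaving out 1 line, which also leaves fewer residual degrees of freedom, gave 611 to 3971 calls. These were 611 without MHCC97L, 981 without MHCC97H and 3971 without HCCLM3. For MHCC97H against MHCC97L, 348 genes passed with all lines and 1296 without HCCLM3. The share of TGF-β1 calls that rose was 53.9%, 37.1% with library totals, 44.2% with upper quartiles and 62.3% with DESeq2. The causes were not tested. Each of the 8 genes kept its direction in all alternatives run. Of 64 recomputed changes, 63 moved by less than the SD of the gene's own changes over the lines. That SD comes from the same lines, so leaving a line out can hardly move a change by more. The count is therefore no measure of stability. NRSN1, with an SD of 1.21, ran from 1.66 to 2.66 and still lay within it. The exception was PGM2L1, the gene with the most even shift, at 1.27 with library totals. Of 120 recomputed line differences of the 8 genes, 4 lost the call and 3 gained it. Only 8 of the 24 differences had a call to lose, so 120 is not the base for the losses. SAMD11 in HCCLM3 against MHCC97L lost its call with library totals, with no count filter and without MHCC97H. KCTD11 in the same pair of lines lost its call with DESeq2. Of the 20 named relatives, partners, pathway genes and neighbours that passed, reference SMAD targets aside, 6 passed in every alternative with the line term, 14 did not pass without MHCC97L, 10 did not pass without MHCC97H, and 1, RND1, passed without the line term. With a line left out, 19 to 21 SMAD targets passed, 0 to 4 of the cortical microtubule genes and 0 to 5 of the KCTD family; other scalings or no count filter gave 22 SMAD targets. Depth limits genes at a few CPM or less, among them ACAP1, TREH, FLRT1, FGFR1, UNC5C, MACROD2 and, in controls, SAMD11.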
